A study of Mus musculus with 10 samples.

Results

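The genes of catecholamine synthesis and storage were followed on whole-transcript arrays of the mouse adrenal gland, with each array taken as 1 animal. Members were taken from a fixed list of 10 genes: Th, Ddc, Dbh, Pnmt, Slc18a1, Slc18a2, Cyb561, Chga, Chgb and Slc6a2. Each was read through the probe that is annotated to that gene alone, and all 10 were measured, out of 19661 genes with such a probe. The arrays carry RNA of 5 Crem-/- mice (KO), mutant for the cAMP responsive element modulator, and of 5 wild-type mice (WT). All animals had the mixed 129Pas x C57Bl/J background, were 8 weeks old, received no treatment and were killed at lights on (0 h). The labels state neither sex nor how many glands of an animal were taken. The labels place KO 1, KO 2 and WT 1 in batch 1, KO 3 and KO 4 in batch 2, KO 5, WT 2, WT 3 and WT 4 in batch 3, and WT 5 in batch 4. What a batch stands for is not stated in the labels.

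Adrenaline and noradrenaline are made in the chromaffin cells of the adrenal medulla, which lies inside the steroid-making cortex. Tyrosine hydroxylase makes DOPA, DOPA decarboxylase turns it into dopamine, and vesicular transporters load the amine into dense-core granules, where dopamine β-hydroxylase makes noradrenaline. In the cytosol a methyltransferase then makes adrenaline. The granule proteins chromogranin A and B hold the stored amine, and a plasma membrane transporter takes noradrenaline back up. CREM and its relatives bind the cAMP response element (CRE), and Th is a classical gene with such an element in its promoter.

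Promoter sequences are shown for the members that hold a CRE, since the mutated gene encodes a factor that binds it. RefSeq sequences (build GRCm38.p6) that run 250 bases before to 50 bases after the transcript start were found for 6 members, Th, Ddc, Dbh, Slc18a2, Chga and Chgb. They were searched for the full palindrome TGACGTCA and, on both strands, for its shorter parts TGACGT and TGACG, each contained in the longer one. The full element was found in 3 members, Th, Chgb and Slc18a2, and in 1.79% of 32851 promoter windows of the same length. The 6-base part was found in 4 members, with Chga added, and in 7.51% of all windows. The 5-base part was found in 5 members, with Dbh added, and in 20.8% of all windows. Neither of the windows of Ddc held any of these letters. The lines give 140 bases before to 10 bases after the start, with the longest match in capitals and its first base counted from the start.
Th, chr7:142899986-142900135, minus strand, match from position -45: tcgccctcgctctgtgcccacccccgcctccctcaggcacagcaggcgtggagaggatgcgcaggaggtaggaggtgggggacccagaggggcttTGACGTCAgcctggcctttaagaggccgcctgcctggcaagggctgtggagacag
Chgb, chr2:132781502-132781651, plus strand, match from position -72: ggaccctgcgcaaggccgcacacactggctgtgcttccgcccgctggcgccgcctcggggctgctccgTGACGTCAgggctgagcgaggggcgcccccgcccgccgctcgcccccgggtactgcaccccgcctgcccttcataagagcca
Slc18a2, chr19:59260738-59260887, plus strand, match from position -4 and across the start: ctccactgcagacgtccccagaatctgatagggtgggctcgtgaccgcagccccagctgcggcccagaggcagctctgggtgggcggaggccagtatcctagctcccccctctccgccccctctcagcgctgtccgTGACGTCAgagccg
Chga, chr12:102554801-102554950, plus strand, match from position -44: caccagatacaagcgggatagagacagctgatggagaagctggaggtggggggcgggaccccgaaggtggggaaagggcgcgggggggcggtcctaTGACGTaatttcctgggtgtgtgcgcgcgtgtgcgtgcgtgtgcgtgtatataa

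Levels are log2 RMA values, so that a difference of 1 stands for a 2-fold change. Array medians lay between 7.17 and 7.25. Crem itself was 7.38, 7.97, 6.86, 6.84 and 7.77 on KO 1 to KO 5, and 7.45, 7.23, 8.14, 7.62 and 7.27 on WT 1 to WT 5. These levels overlapped, and the exons that the probe reads are not named in these sources, so the probe could not check the labels. The tissue label was borne out by the cortex genes Star and Cyp11b1, which were at least 13.31 and 13.50 on every array. Several arrays stood apart. On the first principal component of all probes (53.8% of the variance), KO 2, KO 5 and WT 3 scored 60.7 to 69.4 and the others -54.0 to 17.4. On the second component (24.8%), KO 1 scored 81.4 and the others -28.0 to 12.9. Values without KO 1 are given beside the differences that it moves most.

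The enzymes of the pathway were much lower on KO 1 than on any other array. Th, the first and rate-limiting enzyme, had levels of 8.40, 12.09, 12.39, 12.72 and 11.34 on KO 1 to KO 5, and of 12.70, 12.40, 11.85, 12.43 and 11.82 on WT 1 to WT 5. KO 1 differed from the next array by -2.94, while KO 4 was the highest array of all, so the groups overlapped. Ddc, the decarboxylase that serves dopamine and serotonin alike, was 8.55, 10.49, 10.90, 10.98 and 9.92 in KO, and 11.26, 10.77, 10.44, 10.54 and 10.36 in WT. WT 1 was highest, and KO 1 and KO 5 lay below all WT arrays.

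The enzymes specific to noradrenaline and adrenaline were lower still on KO 1 relative to the other arrays. Dbh had levels of 7.99, 11.85, 12.79, 13.09 and 11.38 in KO, and of 12.94, 12.67, 11.75, 12.53 and 12.10 in WT. Pnmt, which makes adrenaline and marks adrenaline-type chromaffin cells, was 7.91, 11.96, 12.75, 13.17 and 11.33 in KO, and 13.11, 12.68, 11.23, 12.78 and 11.86 in WT. In both genes KO 4 and WT 1 were the highest arrays and KO 1 the lowest. On KO 1 the level of Pnmt was 21.2-fold lower and that of Dbh 20.5-fold lower than the mean of the other 9 arrays, against 13.9-fold for Th and 4.23-fold for Ddc.

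Of the vesicular monoamine transporters, Slc18a1 (VMAT1), the chromaffin form, had levels of 6.54, 10.17, 10.39, 10.58 and 9.78 in KO, and of 10.52, 10.46, 10.27, 10.54 and 9.75 in WT. Its level on KO 1 differed by -3.73 from the mean of the others, which stayed within a range of 0.82. Slc18a2 (VMAT2), the form that neurons also use, was 6.57, 9.23, 8.55, 7.85 and 8.55 in KO, and 8.15, 7.56, 9.17, 8.52 and 7.37 in WT. It was again lowest on KO 1, but only 0.80 below WT 5, and its highest arrays were KO 2 and WT 3. The groups overlapped in both genes.

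The granule proteins Chga and Chgb were the most even members across the arrays other than KO 1. Chga, the chromogranin A precursor, had levels of 9.52, 13.19, 13.45, 13.64 and 12.92 in KO, and of 13.69, 13.29, 13.15, 13.46 and 13.13 in WT. Chgb, the chromogranin B precursor, was 9.59, 13.19, 12.63, 12.83 and 12.68 in KO, and 13.05, 12.73, 12.96, 13.05 and 12.60 in WT. KO 1 differed from the next array by -3.40 for Chga and -3.02 for Chgb, while the other 9 arrays had SDs of 0.25 and 0.21. Cyb561, the cytochrome that passes electrons to ascorbate in the granule for use by Dbh, was 9.02, 11.52, 12.52, 12.75 and 11.67 in KO, and 12.32, 12.42, 12.01, 12.10 and 12.08 in WT. Its 5 WT arrays had an SD of 0.18, and 3 KO arrays (KO 1, KO 2 and KO 5) lay below all of them and KO 3 and KO 4 above all of them.

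Slc6a2, the noradrenaline transporter of the plasma membrane, had levels of 6.97, 9.19, 8.94, 9.39 and 8.36 in KO, and of 8.71, 9.56, 8.35, 8.57 and 9.08 in WT. KO 1 was lowest and WT 2 highest, and without KO 1 the KO arrays lay within the WT range. RMA gives no detection call, so whether the levels of Slc18a1, Slc18a2 and Slc6a2 on KO 1 (6.54, 6.57 and 6.97) lie above background cannot be settled. They lay within the levels of 5 pancreas genes on that array, which were 6.10 to 7.08.

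**Figure D1:**
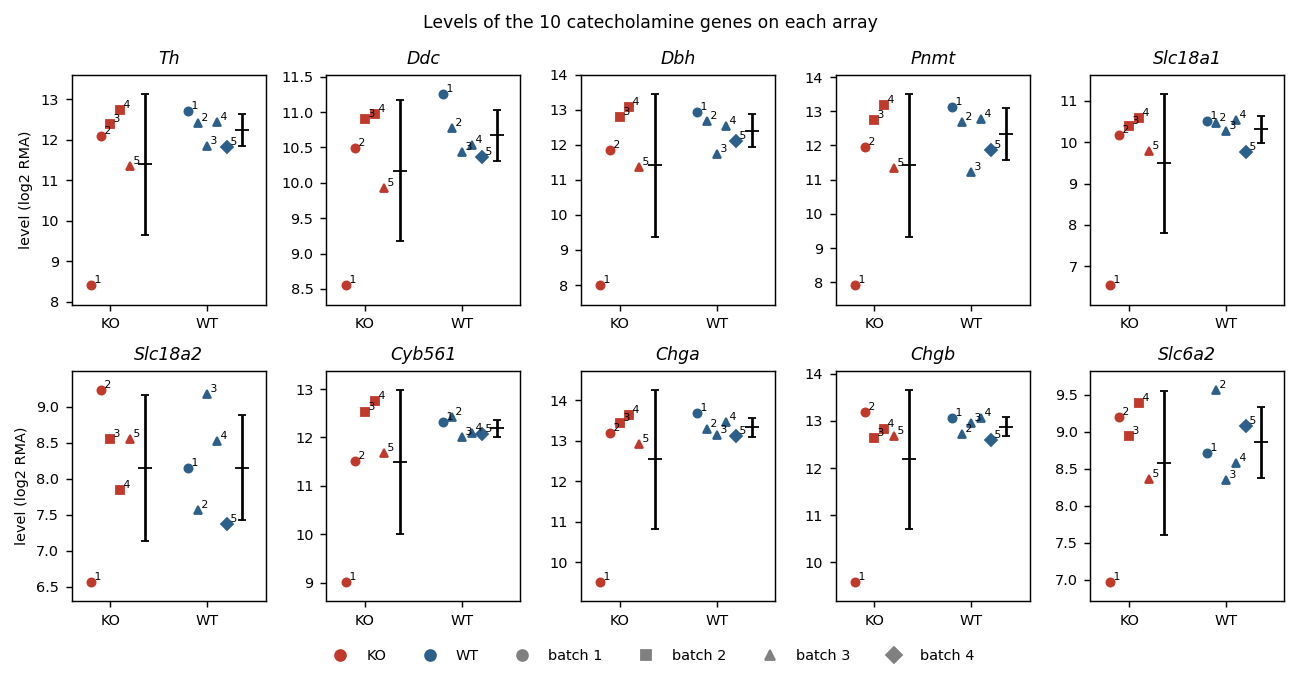
Levels (log2 RMA, vertical axis of each panel) of the 10 catecholamine genes on each array, KO left and WT right, with the replicate number beside each point, the batch as the marker shape, and the mean ± SD of the 5 arrays to the right of each group. KO 1 is the lowest array in each panel (Th 8.40, Pnmt 7.91, Chga 9.52), and the remaining KO arrays overlap the WT arrays. In Cyb561 these KO arrays lie on both sides of the WT arrays, with none inside the WT range.

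All 10 members were lowest on KO 1, as were 13.1% of all genes. In 9 members KO 1 lay at least 1 below the lowest of the other 9 arrays, a gap shown by 103 of 19661 genes (0.524%). Ordered by that gap, Chga, Dbh, Pnmt, Slc18a1, Chgb and Th followed directly on Scg2, a further granule protein, which came first at -4.11. The level on KO 1 minus the mean of the other arrays ranged from -4.41 (Pnmt) to -1.76 (Slc18a2), with a median of -3.50. These are differences as measured, and with no background level known, a transcript at background on KO 1 would differ by more than its value shows. In whole-gland RNA, fewer chromaffin cells and less of these transcripts per cell cannot be told apart.

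Liver and adipocyte markers were high on that array. Alb (albumin) was 14.13 on KO 1 and 6.53 to 11.29 on the others, and all 8 measured liver genes were highest on KO 1, with a list mean of 13.40 against 7.48 to 10.14. The mean of 10 adipocyte genes was 12.58 on KO 1, but it was 12.40 on KO 3, where the member mean was 11.53, the third highest of the 10 arrays. Over the groups, the liver mean ranged from 7.48 to 13.40 in KO and from 7.94 to 9.07 in WT, and the adipocyte mean from 8.19 to 12.58 in KO and from 8.86 to 10.71 in WT. The mean of 12 cortex genes was 12.06 on KO 1 and 11.89 to 12.51 on the others. Even so, 6 of these 12 genes were lowest on KO 1, where 13.1% of all genes were. The mean of 5 pancreas genes was 6.50 on KO 1 against 6.36 to 6.60. The glial mean (6.06 against 6.20 to 6.74) and the endothelial mean (10.16 against 10.19 to 10.83) were lowest on KO 1, though by smaller gaps than the member mean (8.11 against 10.79 to 11.70). Of the 4 glial genes 3 were lowest there, but only 2 of the 6 endothelial genes were. The endothelial gene Cdh5 was highest on KO 1, at 10.38 against 9.31 to 10.36. The part of these differences in the low member levels was not tested.

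**Figure D2:**
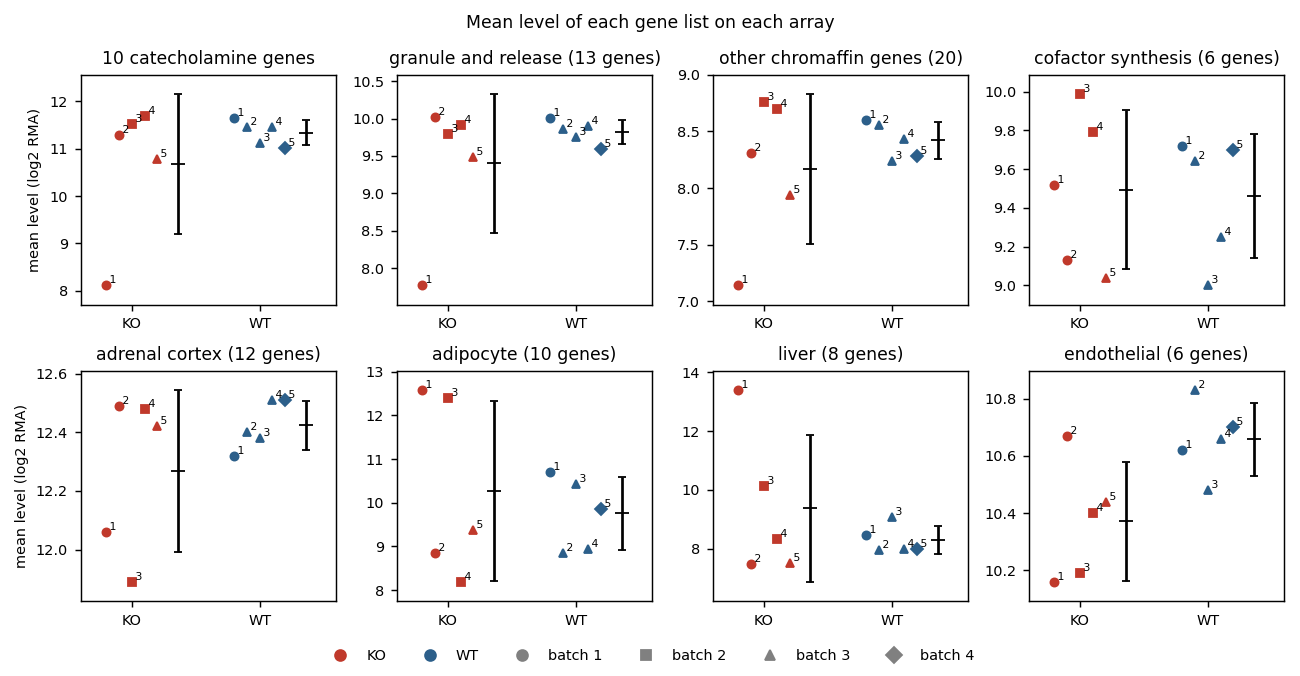
Mean level (log2 RMA, vertical axis) of each gene list on each array, KO left and WT right, with replicate numbers, batch as marker shape and mean ± SD of the 5 arrays beside each group. KO 1 is lowest in the catecholamine genes (8.11), the granule genes (7.77), the other chromaffin genes (7.14) and, by a small gap, the endothelial genes (10.16), highest in liver genes (13.40), and within the range of the other arrays in cofactor genes (9.52).

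The comparison of KO with WT asked whether loss of CREM alters the transcripts of catecholamine synthesis and storage. No member passed the test. All 10 differences (KO minus WT) were below 0, where 53.1% of all genes were, and they ranged from -0.98 for Dbh to -0.00 for Slc18a2, with a median of -0.75 against -0.01 over all genes. Th averaged 11.39 ± 1.75 on the KO arrays and 12.24 ± 0.39 on the WT arrays (5 per genotype, SD), a difference of -0.85 with a standard error of 0.70. For Dbh it was 11.42 ± 2.04 in KO and 12.40 ± 0.47 in WT (difference -0.98, standard error 0.82). The adjusted p of limma was 0.999 for each member. Over all 25664 probes limma called 0 at an adjusted p under 0.05 (0%) and 878 at an unadjusted p under 0.05 (3.42%), and 0 members were in either count. KO and WT did not overlap in 141 of 19661 genes (0.717%), of which 0 were members.

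The size of these differences rested on KO 1. Without it the median over the members was -0.06, and the difference was -0.10 (standard error 0.29) for Th, -0.12 (0.37) for Dbh, -0.03 (0.46) for Pnmt and -0.05 (0.17) for Chga. Slc18a2 then had a difference of 0.39 (0.39) and Slc6a2 of 0.11 (0.28). Without KO 1, the mean Th level was 12.14 ± 0.59 in KO (SD, n = 4) and 12.24 ± 0.39 in WT (SD, n = 5), so that the spread among KO arrays also shrank. With the mean of 20 other chromaffin genes as a covariate the median was -0.18 and the difference -0.21 (0.22) for Th. That covariate was itself 7.14 on KO 1 and 7.94 to 8.76 on the others. It therefore takes up the low level of KO 1, and the smaller differences in that fit are no separate check.

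Within batches, without KO 1, the fitted difference was below 0 in 9 members and above 0 in Slc18a2. For Chgb and Slc6a2 the difference was smaller than its standard error. With batch as a block the median over the members was -1.27, and with batch as a block and KO 1 left out, a fit chosen after seeing the data, it was -0.57. In that last fit the difference was -0.78 (standard error 0.22) for Th, -0.71 (0.15) for Ddc, -0.52 (0.15) for Slc18a1 and -0.62 (0.18) for Cyb561, but -0.09 (0.17) for Chgb, -0.09 (0.39) for Slc6a2 and 0.51 (0.47) for Slc18a2. It had 6 members at an unadjusted p under 0.05, where 13.6% of all probes were, and none at an adjusted p under 0.05 (limma adjusted p = 0.357 for each of the 6). This contrast rested on 2 KO arrays, KO 2 against WT 1 and KO 5 against WT 2, WT 3 and WT 4, because batch 2 contains KO arrays alone and batch 4 a single WT array.

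KO 2 was below WT 1 in 7 members and in 60.9% of all genes, a share near that of the members, and it was above WT 1 in Slc18a2, Chgb and Slc6a2. KO 5 was below each of the 3 WT arrays of batch 3 in 7 members and in 31.5% of all genes, for example in Th with 11.34 against 12.40, 11.85 and 12.43. Within batch 3 the difference was -0.89 (standard error 0.31) for Th, and 3 members (Th, Ddc and Slc18a1) had an unadjusted p under 0.05, as did 1.03% of all probes. Their limma adjusted p was 1, and batch 3 holds 1 KO array, which the fit assumes to vary like the 3 WT arrays, so that these values compare KO 5 with WT rather than the genotypes. With KO 1 included in batch 1, 9 members were lower in KO in both batches, against 45.6% of all genes, with Slc18a2 the exception (0.13 within batch 3), but KO 1 set the direction in batch 1 for Chgb and Slc6a2. KO 2 and KO 5 are also 2 of the 3 arrays that stood apart on the first component, and in a fit added once the data had been seen, which left out KO 1, KO 2, KO 5 and WT 3, the median over the members was 0.21, with 9 members higher in KO and Chgb at -0.13. What batch, the first component and genotype each contribute cannot be told apart with these arrays.

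**Figure D3:**
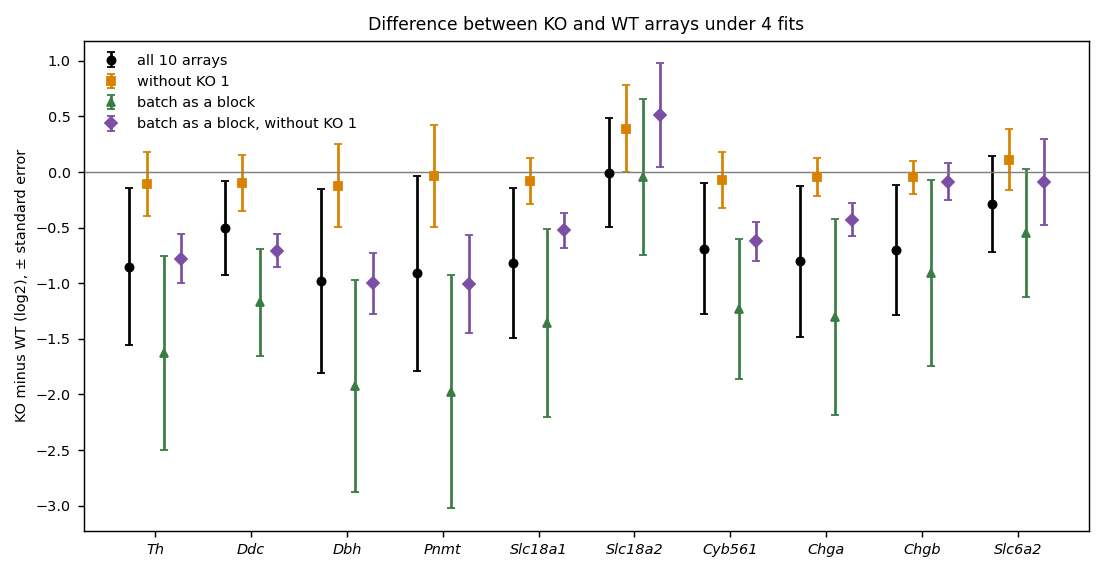
Difference between KO and WT (log2, vertical axis, bars are ± 1 standard error from limma) of each member under 4 fits. With all 10 arrays each difference is at or below 0, without KO 1 they lie between -0.12 and 0.39, and with batch as a block and KO 1 left out they lie between -1.01 (Pnmt) and 0.51 (Slc18a2), with Chgb and Slc6a2 at -0.09.

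The members with the full CRE, Th, Chgb and Slc18a2, had differences of -0.85, -0.70 and -0.00, and of -0.10, -0.05 and 0.39 without KO 1. Chga, with the 6-base part, had -0.80 (-0.05 without KO 1), Dbh, with the 5-base part, -0.98 (-0.12), and Ddc, the single member whose windows lacked these letters, -0.51 (-0.10).

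On the 9 arrays other than KO 1, the members differed in how closely they moved with Th. Pearson's r with Th over these 9 arrays was 0.96 for Chga, 0.95 for Dbh, 0.94 for Ddc, 0.94 for Pnmt and 0.90 for Slc18a1 (Spearman's rho 0.97, 0.88, 0.92, 0.93 and 0.95). It was 0.74 for Cyb561, 0.49 for Slc6a2, 0.30 for Chgb and -0.26 for Slc18a2 (rho 0.73, 0.40, 0.43 and -0.33). Leaving out KO 5 too, the array next farthest from the median, r was 0.94 for Chga, 0.93 for Dbh, 0.88 for Ddc, 0.96 for Pnmt, 0.84 for Slc18a1, 0.66 for Cyb561, 0.26 for Slc6a2, 0.12 for Chgb and -0.25 for Slc18a2. These values describe arrays that share their RNA, normalisation and batch across genes, and no test was made of them. KO 2, KO 5 and WT 3 also stood apart on the first component of all probes, and its part in these values was not tested. Over all 10 arrays, r was 0.87 to 0.99 for every member but Slc18a2 (0.56), and for Chgb it was 0.94 with KO 1 against 0.30 without it.

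The size of the movement differed as well. Over the 9 arrays the SD was 0.74 for Pnmt, 0.60 for Dbh, 0.46 for Th and 0.40 for Ddc, but 0.32 for Slc18a1, 0.25 for Chga and 0.21 for Chgb. Pnmt on WT 3 lay 1.09 below its mean over these arrays while Chga lay 0.17 below and Slc18a1 was at its mean. Slc18a2 had an SD of 0.65 and did not follow Th: on KO 2 and WT 3 it lay 0.90 and 0.85 above its mean, where Th was at -0.10 and -0.34, while on KO 3, WT 4 and WT 5 (0.22, 0.19 and -0.96) it lay on the same side of its mean as Th (0.20, 0.23 and -0.37). KO 5, the lowest of the 9 arrays for Th, Ddc, Dbh and Chga, was 0.22 above the mean for Slc18a2. KO 2, KO 5 and WT 3 were the arrays apart on the first component of all probes. Slc18a2 lay above its mean on each of them, as it did on KO 3 and WT 4. The part of that component in the levels of Slc18a2 was not tested.

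**Figure D4:**
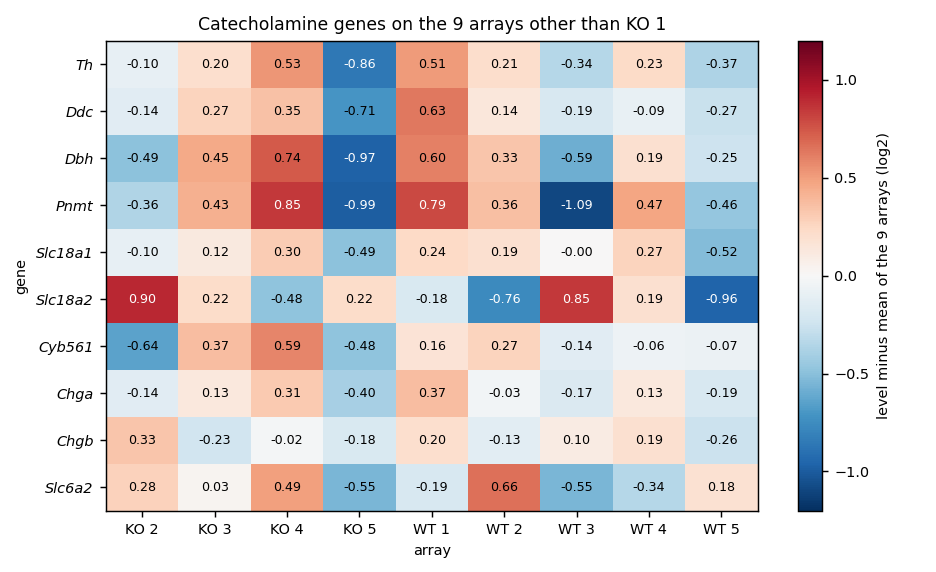
Level of each member (rows) on each of the 9 arrays other than KO 1 (columns, KO left of WT), as the difference from the member's mean over these arrays (log2, colour and printed value). Th, Ddc, Dbh, Pnmt, Slc18a1 and Chga are low together on KO 5 and WT 5 and high together on KO 4 and WT 1, while Slc18a2 is highest on KO 2 (0.90) and WT 3 (0.85).

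The pathway was widened with lists of genes that supply, surround or clear the catecholamines. Cofactor synthesis makes tetrahydrobiopterin, which Th needs. Of its 6 measured genes 0 were called, and their median difference was 0.07. Gch1, the first enzyme of that route, followed Th in being lowest on KO 1, with 7.96, 9.40, 9.05, 9.82 and 9.28 in KO and 9.84, 9.72, 8.94, 9.40 and 9.93 in WT (difference -0.46, standard error 0.32, and -0.18 without KO 1). Pts, the second enzyme, was 9.73 on KO 1 and 8.90 to 9.99 on the others (difference 0.21, standard error 0.17), and Gchfr, the feedback regulator of Gch1, was 7.96 on KO 1 and 6.62 to 8.84 on the others (0.33, standard error 0.38).

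Of the breakdown genes, 4 of 7 were measured and 0 called, with a median of -0.04. Maoa, a monoamine oxidase of the outer mitochondrial membrane, was 9.50 on KO 1 and 9.57 to 10.90 on the others, with a difference of -0.39 (standard error 0.26, and -0.26 without KO 1). Sult1a1, a sulphotransferase that the liver also uses, was 11.10 on KO 1 and 8.72 to 9.95 on the others (0.47, standard error 0.41, and 0.08 without KO 1), and Aldh2, an aldehyde dehydrogenase, had a difference of -0.11 (0.17).

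Granule cargo, processing and release genes were low on KO 1 with the members. Of 13 measured genes 10 were lowest there, and their mean was 7.77 on KO 1 and 9.49 to 10.02 on the others. None was called, 12 were lower in KO, where 53.1% of all genes were, and the median difference was -0.39 (-0.01 without KO 1). Pam, the enzyme that amidates peptides, had the smallest unadjusted p of the list (0.0233), with a difference of -0.39 (standard error 0.15, limma adjusted p = 0.999). Cpe, carboxypeptidase E, had -0.33 (0.17), and Scg5, a chaperone of the prohormone convertase PC2, had -0.58 (0.47), which was -0.17 without KO 1. Snap25, a SNARE protein of granule fusion named after its values were seen, was 6.65, 9.69, 8.33, 7.90 and 9.71 in KO, and 8.13, 7.91, 9.81, 8.30 and 7.65 in WT. Like Slc18a2 it was highest on KO 2 and WT 3, but also on KO 5.

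Among 20 other chromaffin and sympathetic genes 0 were called, 16 were lowest on KO 1, and the median difference was -0.21 (-0.02 without KO 1). Stmn2, a neuronal microtubule regulator, had a difference of -0.55 (standard error 0.28), Gata3, a transcription factor of sympathoadrenal cells, of -0.69 (0.44), and Uchl1, a neuronal ubiquitin hydrolase, of -0.80 (0.56). Without KO 1 these were -0.27 for Stmn2, -0.23 for Gata3 and -0.37 for Uchl1. Penk, the enkephalin precursor named after its values were seen, was highest on KO 1 at 10.94, against 9.78 to 10.77 on the others.

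The lists for other cell types held no called gene either. In the cortex list 11 of 12 genes were lower in KO, where 53.1% of all genes were, with a median of -0.14 (-0.105 without KO 1). Genes of a list share their arrays, so such counts are not of independent genes. Nr5a1, the transcription factor SF-1 of steroid-making cells, had a difference of -0.47 (standard error 0.17), Star, which brings cholesterol into mitochondria, of -0.30 (0.15), and Scarb1, the lipoprotein receptor, of -0.26 (0.16, and -0.12 without KO 1). All 6 endothelial genes were lower in KO, with a median of -0.35 (-0.25 without KO 1). Among them were Kdr at -0.35 (0.14), Flt1 at -0.34 (0.20) and Tek at -0.49 (0.29, and -0.32 without KO 1). The 10 adipocyte genes were all higher, with a median of 0.48 (Pparg 0.77, Lpl 0.73, Lep 1.09), as were the 8 liver genes with 1.28 (Apoa2 1.44, Ttr 1.61, Apoa1 1.24). Without KO 1 those medians were 0.015 for adipocyte genes (Pparg 0.26, Lpl 0.25, Lep 0.24) and 0.09 for liver genes (Apoa2 0.43, Ttr 0.37, Apoa1 0.13). The medians were 0.02 for 5 pancreas genes (Cela2a 0.11, Prss2 0.04, Cpa1 0.02) and 0.10 for 4 glial genes (Fabp7 -0.31, or -0.13 without KO 1, S100b 0.28, Sox10 0.05).

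The genes outside the list whose levels were most like the mean profile of the members over 10 arrays were Npy (r = 0.989, rho 0.95), Sidt1, Lgr5, Rtn1, Nrsn1 and Ncam1 (r at least 0.976). Npy, the neuropeptide stored with catecholamines, was 9.20 on KO 1 and 12.06 to 13.37 on the others, and without KO 1 its r was 0.921, against 0.894 for Nrsn1 and Ncam1, 0.835 for Sidt1, 0.793 for Rtn1 and 0.778 for Lgr5. Over those 9 arrays the most alike were Micalcl (r = 0.975), Gse1, 1810046K07Rik, Tbc1d21, Shisal2a and Gata2 (r = 0.958), and of these Shisal2a and Gata2 also had r of 0.807 and 0.915 over 10 arrays, against -0.056 for Micalcl and -0.299 for 1810046K07Rik. Micalcl was only 6.07 to 6.47 and Tbc1d21 5.41 to 5.85 on those 9 arrays. Whether such levels lie above background cannot be settled. Gse1, 1810046K07Rik, Shisal2a and Gata2 were at least 7.18 there. An r over 0.9 was shown by 68 of 19651 genes over 10 arrays and by 74 over 9 arrays, and 13 were in both counts. With so few arrays such values describe these glands and were not tested.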

How the data were processed

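Whole adrenal RNA of 5 KO and 5 WT mice was hybridised to Affymetrix whole-transcript arrays. The authors deposited log2 expression levels per probe, which the submitters' processing notes credit to RMA. The sources used here do not give the software, its version, filters or any batch correction. Of 35557 deposited rows, 9868 held no value and 25 were array controls, which left 25664 probes, 20777 with 1 gene symbol. The highest-mean single-gene probe stood for a gene, and each member had 1 such probe. Chromosomes and promoters are from RefSeq (GRCm38.p6), and no build is named for the arrays.

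Genotype was the only term of a two-sided LIMMA fit (limma 3.58.1, R 4.3.3, lmFit with eBayes). Benjamini-Hochberg adjustment ran across every probe, with a threshold of 0.05. The procedure was tested on simulated data with independent normal noise and added shifts. The simulation held no batch effect and no array like KO 1, so it does not cover those features. Each array has its own number in the labels and was taken as 1 mouse, and precision is limited by there being 10 arrays. Alternatives were batch as a fixed or random block (consensus correlation 0.172), single batches, other scalings, array weights, a covariate for chromaffin genes, brighter probes only, eBayes with trend, a threshold of 0.01, all probes of a gene averaged, and each array left out. Leaving out several arrays, or KO 1 with batch as a block, was chosen after seeing the data.

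Named genes were the 10 members, the 6 other genes most like their mean profile over 10 arrays and the 6 over 9 arrays, the 3 genes with the smallest p in each other list, and defining markers of the adrenal cortex and other tissues. Members and lists were chosen with earlier results of these data known. Figures were drawn with matplotlib 3.10.9.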

Additional observations from a re-analysis of the deposited data

Results flagged for a closer look

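Each value below belongs to KO 1 and lies far from the other 4 KO arrays, by Dixon's test on the gap relative to the range (critical value 0.71 for 5 arrays). Slc18a1 was 6.54 on KO 1 (gap over range 0.802), Chga 9.52 (0.826) and Chgb 9.59 (0.844). The mean level of the 10 members was 8.11 (0.747), and the mean of the granule cargo, processing and release genes was 7.77 (0.763). The other 7 members did not pass the critical value. In all, 42 groups were examined and 5 passed that value. Chance alone passes about 1 in 20 independent groups. These groups share arrays and genes, so that rate cannot be set against the count.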

How the results depend on the processing

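The count of called probes was 0 in limma under every alternative run, with 503 to 1462 at an unadjusted p under 0.05 when arrays were left out in turn. The median difference of the members was -0.75 and kept its sign except without KO 1, KO 2, KO 5 and WT 3 (0.21). Batch as a block gave -1.27, batch 1 alone -2.10, and it was -0.18 with the chromaffin covariate and -1.16 without KO 2, KO 5 and WT 3. It ranged from -1.04 (without KO 4) to -0.0589 (without KO 1) when arrays were left out in turn. Slc18a2, at -0.00, was 0.0365 with batch as a random block, 0.13 within batch 3, 0.0014 after repeated quantile normalisation, 0.10 with array weights, 0.21 with the covariate, 0.51 with batch as a block without KO 1, and -0.27 to 0.39 with arrays left out in turn. Slc6a2 was 0.0622 with the covariate and -0.49 to 0.11 with arrays left out in turn. Without KO 1, KO 2, KO 5 and WT 3 the difference was 0.22 for Th, 0.21 for Ddc, 0.38 for Dbh, 0.35 for Pnmt, 0.17 for Slc18a1, 0.30 for Slc18a2, 0.41 for Cyb561, 0.15 for Chga and 0.18 for Slc6a2. Fits that leave out several arrays were chosen after seeing the data. The cause of these shifts was not tested. With 1 probe per member, averaging probes changed no member. No paired analysis was possible because the replicate numbers were given in accession order and pair no animals.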
